A study of Capra hircus with 12 samples.

Results

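The bulge of a hair follicle is the niche at the lower end of its permanent part, where epithelial stem cells lie quiescent through most of the hair cycle, and the hair germ is the small cluster of primed progenitors beneath it that starts the next growth phase. The 10 genes described here, 6 transcription factors (LHX2, SOX9, NFATC1, TBX1, FOXC1 and RUNX1) and 4 cell surface proteins (CD34, ITGA6, LGR5 and LRIG1), are known mainly from mouse follicles as markers or regulators of these cells. They were chosen by symbol, all 10 were found among the 20326 genes of the deposited tables, and all 10 were among the 16095 genes tested. None of them is restricted to the stem cells. SOX9 and LGR5 are also made in the outer root sheath, ITGA6 in all basal keratinocytes, CD34, NFATC1 and FOXC1 in vessels, and RUNX1 in blood cells.

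The libraries came from goats (Capra hircus) of 1.5 years and hold secondary hair follicles, those that make the cashmere fibre. Anagen (growth) was sampled in May and September, catagen (regression) in November and December, and telogen (rest) in February and March, with 1 female and 1 male library in each of the 6 months, 12 in all. Growth stage and season cannot be told apart in this design, and the labels do not say whether an animal was sampled more than once or whether follicles were pooled. In such bulk follicles, fewer cells of a type and less RNA per cell cannot be told apart.

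The values are headed TPM, so they are per transcript length and can be compared between genes, but library sums ran from 904623 to 1127797, and read depth is unknown. Hair follicle markers were abundant in every library: the inner root sheath markers (KRT25, KRT27, KRT74, TCHH and GATA3, 5 of 9 listed) summed to 16189.5 to 20807 in anagen, 12379 to 18722 in catagen and 3589 to 12185 in telogen. Telogen libraries stood apart from the other 8, with 4.63 to 11.8% of their signal from the mitochondrial genome against 1.53 to 3.51%, and within telogen the female and male libraries differed in several marker lists given below.

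The mean levels of the 10 genes lay above those of 48.3% (NFATC1) to 95.1% (ITGA6) of the tested genes. Over the 12 libraries they ran in the order ITGA6 (145 ± 19.0, mean ± SD of the deposited value, n = 12), SOX9 (119 ± 23.8), LGR5 (63.9 ± 5.52), LRIG1 (52.2 ± 11.3), CD34 (44.6 ± 16.0), LHX2 (39.0 ± 11.2), FOXC1 (38.0 ± 3.89), TBX1 (27.6 ± 5.91), RUNX1 (23.5 ± 8.39) and NFATC1 (13.3 ± 2.01). Some neighbours in this order did not differ beyond their spread over the libraries: LRIG1 and CD34, CD34 and LHX2, LHX2 and FOXC1, and TBX1 and RUNX1 lay closer on the log2 scale than the larger of their SDs. LHX2 was above FOXC1 in 7 of 12 libraries, whereas SOX9 was above LGR5 in 12 of 12. The least variable member was LGR5, whose SD was 8.64% of its mean, and the most variable were CD34 (35.8%) and RUNX1 (35.7%).

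**Figure D1:**
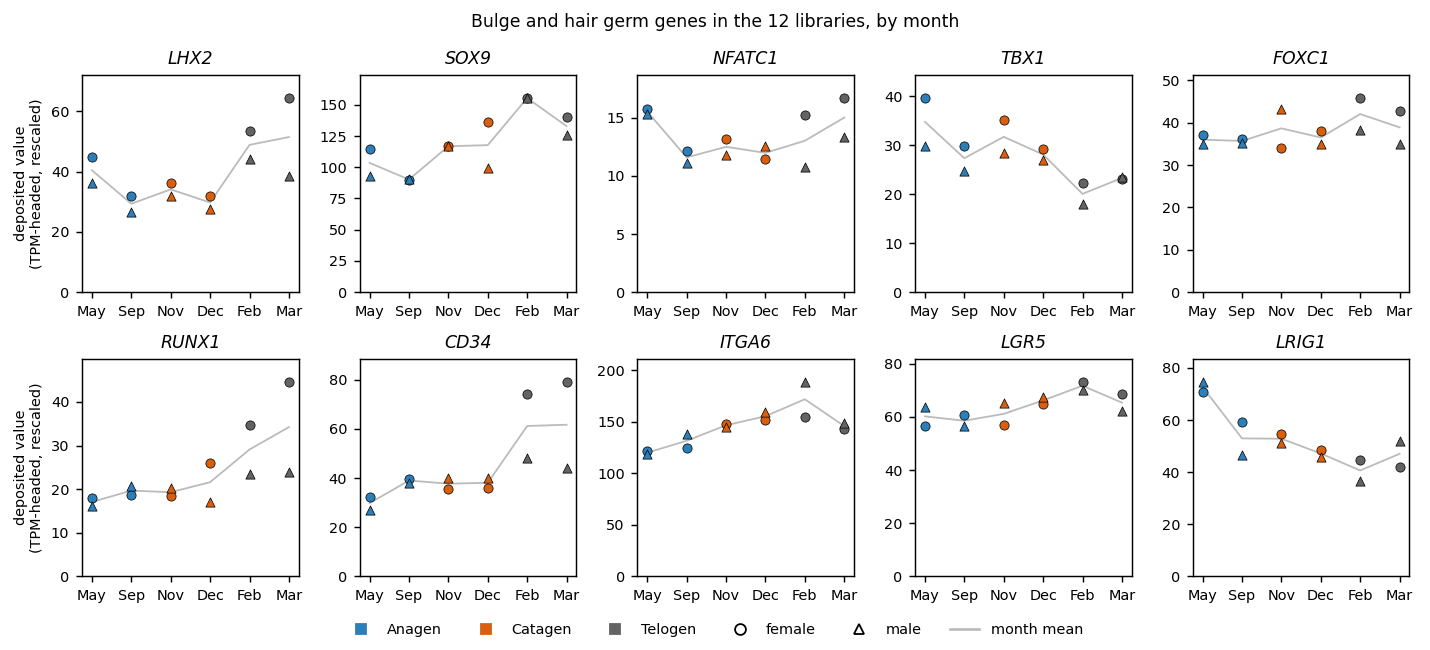
Deposited value of each of the 10 genes (vertical axis, from 0) in each of the 12 libraries by month (horizontal axis), with circles for female and triangles for male libraries, colours for stage and a grey line through the month means. CD34, RUNX1 and LHX2 were highest in the telogen female libraries, TBX1 was low in all telogen libraries, LRIG1 was highest in May, and LGR5 and FOXC1 varied little.

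Across the year 5 members were higher in telogen than in anagen (CD34, RUNX1, SOX9, LHX2 and ITGA6), of which CD34, LHX2 and RUNX1 were also higher than in catagen. TBX1 was lower in telogen than in both other stages, and LRIG1 lower than in anagen. LGR5, FOXC1 and NFATC1 passed in no stage comparison. Differences are given in log2(value + 1), and a gene passed when its adjusted p from limma (Benjamini-Hochberg over the 16095 genes) was below 0.05. In telogen against catagen 3 of 10 members rose and 1 fell, against 43.6% of all tested genes that passed, 24.5% higher and 19.0% lower, so that the share among the members was close to the background. Their median difference was 0.14, beside 0.07 for all tested genes. In anagen against telogen 5 of 10 were lower in anagen and 2 higher, against 52.9% of all tested genes that passed, 29.2% lower and 23.7% higher, with a median of -0.27 beside -0.07. In catagen against anagen 0 of 10 passed in limma, where 0.0559% of all tested genes did, and 2 members had an unadjusted p below 0.05. Counts at an unadjusted p stand here and below without the share of all tested genes at that p. Nothing particular to the members is read from them. LHX2 and CD34 lay wholly above catagen in telogen, as 19.9% of tested genes did, and TBX1 wholly below, as 15.9% did. Against anagen, CD34, SOX9, RUNX1 and ITGA6 lay wholly above in telogen (background 23.2%) and TBX1 wholly below (20.1%). Each pair of these comparisons shares the libraries of 1 stage, so the counts are not independent of each other.

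LHX2 (gene ID 102185664) is a LIM homeodomain transcription factor that maintains the quiescent bulge stem cells. In female and male libraries in that order, its value was 44.8 and 36.2 in May, 32.1 and 26.7 in September, 36.3 and 31.9 in November, 32.0 and 27.6 in December, 53.6 and 44.2 in February, and 64.5 and 38.5 in March. All 4 telogen libraries lay above all 4 catagen libraries, the lowest telogen library (the March male) by a small margin, while telogen and anagen overlapped, the May female lying above both telogen males. LHX2 rose in telogen against catagen by 0.62 (adjusted p = 0.0121, SE 0.171), from 32.0 ± 3.58 to 50.2 ± 11.4 (SD, n = 4). The call was kept with any 1 library left out. It was lower in anagen than in telogen by 0.51 (adjusted p = 0.0240, SE 0.171), a call lost when any 1 of 4 libraries was left out (the females of February, March and September, and the September male). Catagen and anagen did not differ beyond the spread at -0.11 (adjusted p = 0.775, SE 0.171).

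SOX9 (gene ID 106503295), a transcription factor needed to form the bulge and present throughout the outer root sheath, was 114 and 92.7 in May, 89.8 and 90.6 in September, 117 and 117 in November, 136 and 99.1 in December, 155 and 156 in February, and 140.3 and 126 in March, again female before male. Its mean was 96.8 ± 11.7 in anagen, 117 ± 15.2 in catagen and 144 ± 14.3 in telogen (SD, n = 4). The telogen libraries lay above every anagen library, while catagen overlapped with both. SOX9 was lower in anagen than in telogen by 0.57 (adjusted p = 0.00189, SE 0.120), a call kept under all 22 alternatives. Neither single step passed: catagen minus anagen was 0.27 (adjusted p = 0.303, SE 0.120) and telogen minus catagen 0.30 (adjusted p = 0.0593, SE 0.120). The second passed under 6 of 22 alternatives, among them quantile normalization (adjusted p = 0.0133) and the fit without the March male (adjusted p = 0.0288).

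TBX1 (gene ID 108634710), a T-box transcription factor of bulge stem cells that acts in their self-renewal, went the other way. Its values were 39.7 and 29.9 in May, 29.9 and 24.8 in September, 35.1 and 28.4 in November, 29.2 and 27.0 in December, 22.2 and 17.9 in February, and 23.1 and 23.6 in March (female, then male). Every telogen library was below every catagen and every anagen library. TBX1 fell in telogen against catagen by 0.45 (adjusted p = 0.0200, SE 0.138), from 29.9 ± 3.56 to 21.7 ± 2.58 (SD, n = 4), and was higher in anagen than in telogen by 0.49 (adjusted p = 0.0102, SE 0.138). The fall from catagen lost its call without the November female (adjusted p = 0.0643) or the February male (0.0596) and when each library was rescaled to the same sum (0.108). It also lost it without both telogen females (0.0541) or both telogen males (0.0766). The contrast with anagen lost it only without both May libraries (0.10), an alternative chosen after seeing the data, among the 22 run.

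RUNX1 (gene ID 102178020), a transcription factor of blood stem cells that in the follicle promotes activation of bulge and germ cells, was 17.9 and 16.2 in May, 18.6 and 20.7 in September, 18.4 and 20.1 in November, 26.1 and 17.1 in December, 34.8 and 23.4 in February, and 44.6 and 23.9 in March (female, then male). The telogen female libraries stood well above the other 10, and the telogen males lay just above the anagen range but below the December female. RUNX1 rose in telogen against catagen by 0.57 (adjusted p = 0.0266, SE 0.189), with means of 20.4 ± 3.98 in catagen and 31.7 ± 10.1 in telogen (SD, n = 4), and was lower in anagen than in telogen by 0.71 (adjusted p = 0.00733, SE 0.189). The rise from catagen lost its call when a telogen female, either November library or the December male was left out, with adjusted p up to 0.0742 among these. The contrast with anagen kept its call with any 1 library left out, and lost it without both May libraries (adjusted p = 0.0691).

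FOXC1 (gene ID 106503522) and NFATC1 (gene ID 102188180), forkhead and calcium-dependent transcription factors that hold bulge cells quiescent, did not pass in any stage comparison. FOXC1 ranged from 34.1 to 45.9 over the 12 libraries, with stage means of 35.8 ± 0.873, 37.6 ± 4.15 and 40.5 ± 4.80 in anagen, catagen and telogen (SD, n = 4). Its telogen minus catagen difference was 0.10 (95% interval -0.12 to 0.32). NFATC1 ranged from 10.8 to 16.7, with stage means of 13.6 ± 2.32, 12.2 ± 0.792 and 14.02 ± 2.56. Its telogen minus catagen difference was 0.17 (95% interval -0.13 to 0.47), so a change of the size seen for LHX2 lay outside both intervals. Both May libraries (15.7 and 15.3) were above both September libraries (12.1 and 11.1) for NFATC1, a month difference of -0.39 (adjusted p = 0.501, SE 0.171) that did not pass.

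CD34 (gene ID 100861223), a sialomucin on the surface of mouse bulge stem cells and of endothelial cells, showed the largest stage difference of the 10. Female and male values were 32.4 and 27.1 in May, 39.8 and 38.2 in September, 35.5 and 39.8 in November, 36.0 and 40.05 in December, 74.3 and 48.0 in February, and 79.1 and 44.2 in March. All 4 telogen libraries lay above the other 8, and the telogen females lay far above the telogen males. CD34 rose in telogen against catagen by 0.64 (adjusted p = 0.0126, SE 0.180), from 37.9 ± 2.40 to 61.4 ± 17.8 (SD, n = 4), and was lower in anagen than in telogen by 0.79 (adjusted p = 0.00293, SE 0.180). Both calls were kept with any 1 library left out. Catagen minus anagen was 0.15 (adjusted p = 0.692, SE 0.180).

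ITGA6 (gene ID 102186530), the integrin alpha6 chain that anchors basal keratinocytes to the basement membrane, was the most abundant member. Its values were 121 and 119 in May, 125 and 138 in September, 148 and 145 in November, 152 and 159 in December, 155 and 189 in February, and 143 and 149 in March (female, then male). All catagen and all telogen libraries lay above all anagen libraries, and catagen and telogen overlapped. ITGA6 was lower in anagen than in telogen by 0.33 (adjusted p = 0.0160, SE 0.102), from 159 ± 20.5 to 126 ± 8.63 (SD, n = 4). Catagen minus anagen was 0.26 (adjusted p = 0.270, SE 0.102) and did not pass, although it was the only member whose catagen and anagen ranges did not overlap, as 3.4% of tested genes did with catagen above. The contrast with telogen lost its call without both May libraries (adjusted p = 0.132), without both telogen males (0.0597) and over month means (0.0733). Telogen minus catagen was 0.07 (adjusted p = 0.626, SE 0.102).

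LGR5 (gene ID 102172413), a receptor for R-spondins that marks the hair germ and lower bulge in mice, varied least. Its values were 56.7 and 63.7 in May, 60.5 and 56.6 in September, 57.0 and 65.3 in November, 64.8 and 67.7 in December, 73.2 and 70.3 in February, and 68.7 and 62.0 in March (female, then male), and the 3 stages overlapped. The differences were 0.10 for catagen minus anagen (95% interval -0.09 to 0.29), 0.11 for telogen minus catagen (95% interval -0.08 to 0.29) and -0.20 for anagen minus telogen (95% interval -0.39 to -0.02, adjusted p = 0.0648). The last of these passed under 3 of 22 alternatives.

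LRIG1 (gene ID 102191189), a membrane protein that dampens EGF receptor signalling and marks the junctional zone above the bulge, was 70.7 and 74.7 in May, 59.4 and 46.5 in September, 54.7 and 51.0 in November, 48.7 and 45.6 in December, 44.7 and 36.6 in February, and 42.1 and 52.0 in March (female, then male). Both May libraries were above the other 10. LRIG1 was higher in anagen than in telogen by 0.50 (adjusted p = 0.0115, SE 0.145), 62.8 ± 12.7 against 43.8 ± 6.39 (SD, n = 4), although September overlapped with telogen. That call was lost without both May libraries (0.27, adjusted p = 0.176) and without both telogen females (0.49, adjusted p = 0.0569). Rescaling lost it too, to the same sum (0.45, adjusted p = 0.0572) or without mitochondrial and ribosomal protein transcripts (0.41, adjusted p = 0.0555). The 5 skeletal muscle markers measured (ACTA1, CKM, MB, TNNT3 and TTN) were all lower in September than in May, with sums of 4.06 to 90.0 in anagen and at most 6.53 in the other stages, and their part in the May values of LRIG1 was not tested. Catagen minus anagen was -0.30 (adjusted p = 0.327, SE 0.145) and telogen minus catagen -0.19 (adjusted p = 0.293, SE 0.145).

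**Figure D2:**
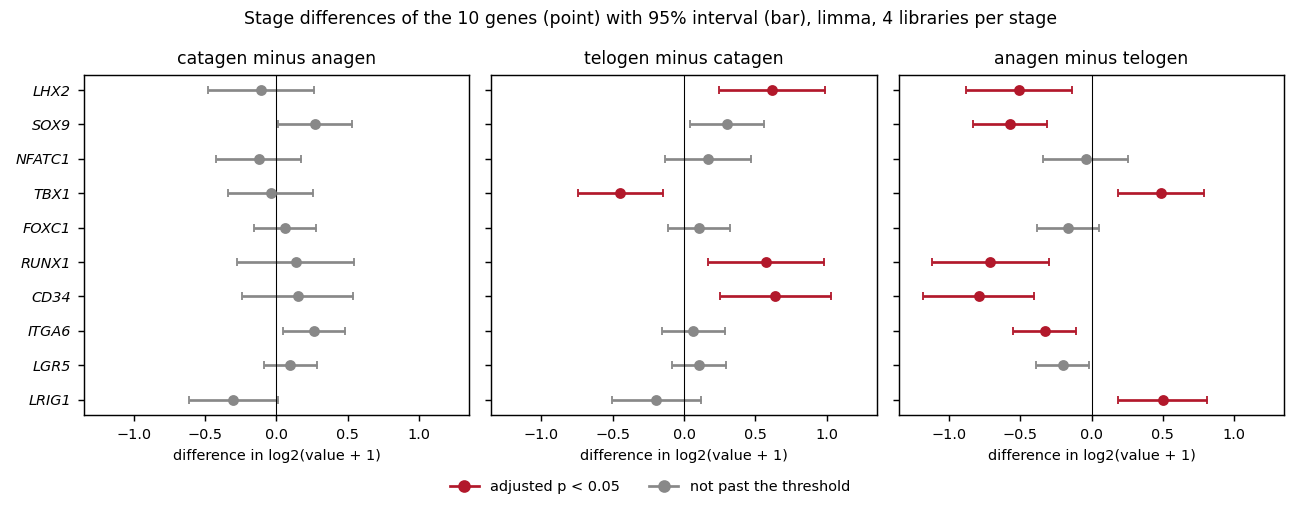
Difference in log2(value + 1) between stages (horizontal axis) for each of the 10 genes (vertical axis), with the limma estimate as a point, its 95% interval as a bar and red for adjusted p below 0.05. In telogen minus catagen CD34, LHX2 and RUNX1 lie to the right and TBX1 to the left of 0, and in catagen minus anagen none passed.

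CD34, RUNX1 and LHX2, the members that rose in telogen against catagen, were each higher in the telogen female than in the male of the same month. So were LGR5, FOXC1 and NFATC1, which passed in no stage comparison. Without both telogen female libraries, 0 of 10 members passed in telogen against catagen, where CD34 was 0.28 (adjusted p = 0.171), LHX2 0.36 (0.149) and RUNX1 0.22 (0.319) in limma. In the same fit 26.2% of all tested genes passed. Without both telogen male libraries 3 passed, against 44.7% of tested genes, with CD34 at 1.00, LHX2 at 0.87 and RUNX1 at 0.93. In anagen against telogen 4 passed without the females (CD34, SOX9, ITGA6 and TBX1), against 41.2% of tested genes, and 8 without the males, against 51.6%. These splits were chosen after seeing the data and leave 2 telogen libraries. In the test of the difference itself, the male change from catagen to telogen minus the female change was -0.88 (adjusted p = 0.252, SE 0.232) for CD34, the largest of the 10, and 0 of 10 members passed in limma, with an unadjusted p below 0.05 for 1 of them. Of all tested genes 0.0186% passed.

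The sums of vessel and blood cell markers were also highest in the telogen females, though not every single marker was. The 10 endothelium markers (PECAM1, CDH5, KDR, TEK, TIE1, CLDN5, EMCN, VWF, ERG and ESAM), none of them at 0 in any library, summed to 224 to 259 in the telogen females and 132 to 142 in the telogen males, against 149 to 199 in catagen and 125 to 155 in anagen. In telogen against catagen 1 of the 10 rose (EMCN, 0.71) and 2 fell (CLDN5, -0.96, and VWF, -0.61), against 24.5% and 19.0% of all tested genes. In anagen against telogen, the contrast in which CD34 differed most, 5 of 10 were lower in anagen (EMCN, -1.28, TEK, -0.70, ERG, CDH5 and KDR) and 1 higher (CLDN5, 0.84). Of all tested genes 29.2% were lower and 23.7% higher. The median of the 10 was -0.57, beside -0.07 for all tested genes. Relative to the summed endothelium markers, CD34 was 0.306 to 0.365 in the 4 telogen libraries, 0.200 to 0.239 in catagen and 0.216 to 0.30 in anagen. The telogen ratios thus lay above all others in both sexes. How many of all tested genes show such a gap in this ratio was not computed, so nothing particular to CD34 is read from it. The lowest telogen ratio, 0.306, lay close to the highest anagen ratio, 0.30. The telogen males held CD34 at 48.0 and 44.2 with endothelium sums below every catagen library and within the anagen range. CLDN5 and VWF, which fell in telogen, lower the telogen sums, so the ratios depend on the markers summed. The part of vessels in the CD34 differences was not tested.

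The 9 blood cell markers (PTPRC, CD3D, CD3E, TYROBP, LAPTM5, CSF1R, CD68, CD53 and CORO1A), also above 0 throughout, summed to 94.5 to 102 in telogen females, 69.2 to 81.7 in telogen males, 48.2 to 57.0 in catagen and 57.4 to 74.7 in anagen. In telogen against catagen 6 of 9 rose and 0 fell (background 24.5% and 19.0%), with LAPTM5 at 1.20 and CD68 at 0.91. In anagen against telogen 4 of 9 were lower in anagen and 0 higher (background 29.2% and 23.7%). Relative to these markers RUNX1 in telogen, 0.286 to 0.435, overlapped with both other stages. All catagen ratios (0.353 to 0.521) lay above all anagen ratios (0.272 to 0.324), with every catagen marker sum below every anagen sum. How many of all tested genes show such a gap was not computed here either. The part of blood cells in the RUNX1 difference was not tested. The 6 Schwann cell markers summed to 189 to 199 in telogen females, 115 to 169 in telogen males and 83.6 to 99.3 in catagen (4 of 6 rose). The 7 sebaceous gland markers summed to 1455 to 1732, 969.6 to 1042 and 852 to 1033 in the same order (2 of 7 rose). Of all tested genes 24.5% rose, so the sebaceous count was near the background. The telogen females were also the libraries with the least summed inner root sheath signal, 3589 to 7823 against 10102 to 12185 in the telogen males, a sum carried by KRT25, KRT27 and TCHH. GATA3, a transcription factor in the same list, rose in telogen against catagen by 0.55 (adjusted p = 0.00274, SE 0.115). The 8 dermal fibroblast markers went the other way between the sexes, with sums of 794 to 798 in telogen females and 1168 to 1635 in telogen males. The part of these cell types in the higher member values was not tested.

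**Figure D3:**
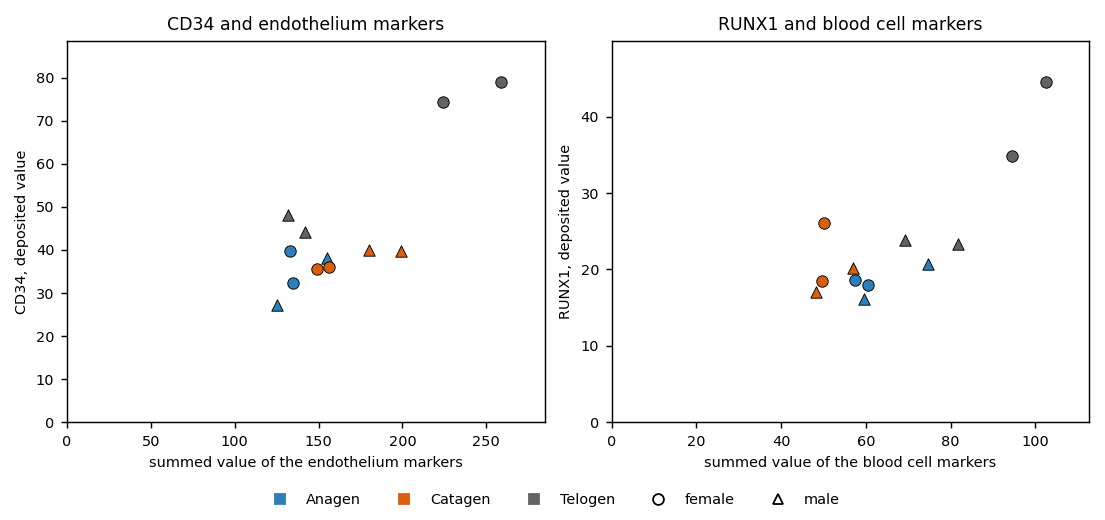
CD34 against the sum of 10 endothelium markers (left) and RUNX1 against the sum of 9 blood cell markers (right), both as deposited values with axes from 0, 1 point per library, circles for female and triangles for male libraries and colours for stage. The telogen females are highest on both axes in both panels, and the telogen males have CD34 above the catagen libraries at lower endothelium sums.

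Levels relative to the basal epithelium depended on which basal genes were used. The 8 basal keratinocyte markers were split in telogen against catagen, with TP63, the master regulator of basal keratinocytes, higher by 0.95 (adjusted p = 0.000903, SE 0.156) and LAMA3 higher by 0.46, and KRT5, a basal keratin, lower by 0.67 (adjusted p = 0.0464, SE 0.251) and LAMB3 lower by 0.75. Relative to the mean of all 8, LHX2 was higher in telogen than in catagen by 0.62, CD34 by 0.64 and TBX1 lower by 0.44 (log2 ratio), each with the smallest p that an exact permutation test of 4 against 4 libraries allows (two-sided p = 0.0286, adjusted p = 0.0635 over 20 pairs of member and comparison). In telogen minus catagen 3 of 10 members reached that p, where 30.7% of all tested genes did, and in anagen minus telogen 6 of 10, where 37.3% did. Of the 20 pairs, 9 reached that p and 0 passed after adjustment. Pairs at the smallest p pass together or not at all, by how many reach it, so the 0 says only that too few did. KRT5 and KRT14 had means of 5717 and 5350.3 in catagen and 3570.4 and 3911 in telogen, so that a ratio to them is higher in telogen for most genes. Relative to these keratins alone, 15 of 20 passed by the same exact permutation test (adjusted p = 0.0381 each). Of all tested genes, 54.0% reached the smallest p against these keratins in telogen minus catagen and 73.8% in anagen minus telogen, beside 7 and 8 of 10 members, and nothing particular to the members is read from this count. The sign turned, without passing, for TBX1 (0.11 in telogen minus catagen and -0.38 in anagen minus telogen) and for LRIG1 (0.37 and -0.36). The median tested gene against these keratins was at 0.63 in telogen minus catagen and -0.94 in anagen minus telogen. In both contrasts the ratios of TBX1 and LRIG1 were thus raised in telogen by less than that of the median gene. Nothing about the telogen level of either member is read from the turned sign.

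Between successive months, members passed in the step from March to May, the return of growth. In May minus March 4 of 10 members passed, against 27.4% of tested genes: CD34 was lower in May by 0.97 (adjusted p = 0.0255, SE 0.263), RUNX1 lower by 0.90 (adjusted p = 0.0444, SE 0.291), LRIG1 higher by 0.62 (adjusted p = 0.0215, SE 0.161) and TBX1 higher by 0.54 (adjusted p = 0.0451, SE 0.176). Without the May female, the May male or the March female 0 of 10 passed, where 1.40%, 2.38% and 8.93% of tested genes did. Without the September female or the September male 2 passed (CD34 and LRIG1), against 22.6% of tested genes in each fit. LHX2, at -0.30 (adjusted p = 0.334, SE 0.228), and SOX9, at -0.36 (adjusted p = 0.124, SE 0.167), did not pass in this step. In February minus December 0 of 10 passed in limma, against 16.6% of tested genes. An unadjusted p below 0.05 was reached by 4 members, a count without its share of all tested genes from which nothing is read. The nearest to passing was LHX2 at 0.70 (adjusted p = 0.0623, SE 0.228). Without the March female or the March male, which do not enter the difference but enter the shared spread, 2 passed (CD34 and LHX2), against 27.9% and 27.8% of tested genes.

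None of the 10 passed in limma in September minus May, November minus September, December minus November or March minus February, steps in which 0.137%, 0.0186%, 0% and 0.00621% of tested genes passed. Unadjusted p values below 0.05 were reached by 2, 0, 0 and 0 members in these steps. The LRIG1 difference, September minus May, was -0.46 (adjusted p = 0.423, SE 0.161). Over all 6 months together 3 members passed the moderated F test, against 32.7% of tested genes: LRIG1 (adjusted p = 0.0321, May highest at a mean of 72.7 and February lowest at 40.6), SOX9 (0.0423, February 155 and September 90.2) and TBX1 (0.0491, May 34.8 and February 20.1). Of 18 alternatives the call was lost in 5 for LRIG1, 8 for SOX9 and 12 for TBX1, most of them with 1 library left out. Without the May female, the May male or the February male 0 members passed, against 16.7%, 16.4% and 14.9% of tested genes, and without the March male 5 passed, against 45.7%. Leaving out either September library, the November female, either December library or the February female left 1. The share of all tested genes moved between such fits, so nothing particular to the members is read from these counts.

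Between the sexes, with month as a block, 0 of 10 members passed in limma, against 0.0559% of tested genes, and 2 had an unadjusted p below 0.05. LHX2 was lower in the male library in 6 of 6 months, by 0.32 (adjusted p = 0.605, SE 0.0851) on average. TBX1 was lower in the male in 5 of 6 months, by 0.22 (adjusted p = 0.616, SE 0.0747). NFATC1 and FOXC1 were also lower in the male in 5 of 6 months. Such months were not counted for all tested genes, so no sex trait of a member is read from them.

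Among themselves the members were compared by the root mean square difference of their log2(value + 1) over the 12 libraries, each centred on its own mean, as a description with no test. The closest pair was LGR5 and FOXC1 (0.104), which both varied little. LRIG1 and TBX1 (0.175) and CD34 and RUNX1 (0.184) were the closest pairs among the members that passed a stage comparison. The pairs farthest apart were CD34 and LRIG1 (0.648) and CD34 and TBX1 (0.643), and LHX2 was nearer to SOX9 (0.256) than to CD34 (0.308). These libraries share stage, month and sex, so closeness of profile says nothing of a shared cell.

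For the 3 members that passed the F test over months, the nearest profiles among 10660 genes by the same measure were as follows. For SOX9 they were ZBTB44 (0.111), CCNY (0.119) and MYO1D (0.121), where the median gene lay at 0.341. For LRIG1 they were KCTD2 (0.0753), RNF123 (0.0777) and KLHL22 (0.0821), with the median gene at 0.370. For TBX1 they were PHLDB1 (0.0757), AGRN (0.0812) and TRIM8 (0.0838), with the median gene at 0.365. AGRN, the basement membrane proteoglycan agrin, was among the latter at a mean value of 35.5. No other member was among these.

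Other genes known from the bulge and hair germ passed, counted in either direction, at a share near that of all tested genes. Of 28 listed, 27 were tested, and 8 rose and 2 fell in telogen against catagen (background 24.5% and 19.0%, median 0.04, against 0.07 for all tested genes). TCF7L2, a Wnt effector of the TCF family that acts with TCF7L1 in follicle stem cells, rose in telogen by 0.99 (adjusted p = 0.00079, SE 0.157), its mean going from 20.6 ± 2.08 to 42.6 ± 9.50 (SD, n = 4). NFIX rose by 0.57 (adjusted p = 0.0172, SE 0.170), from 26.3 ± 2.88 to 40.3 ± 10.2. NFIB, which like NFIX belongs to the nuclear factor I family that maintains bulge cell identity, rose by 0.36, and PRDM1, a transcriptional repressor of sebaceous and differentiating epithelial cells, by 0.44. ITGB1, the integrin beta1 chain, fell by 0.63 (adjusted p = 0.00137, SE 0.114), from 195 ± 10.4 to 126 ± 16.6.

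The remaining members of that list to pass in telogen against catagen, outside the rule for naming and chosen after their values were seen, were TGFB2 (0.53), CD200 (0.81), GATA6 (0.63), TCF7L1 (0.71) and AXIN2 (-0.67), the last a target and brake of Wnt signalling. AXIN2 went from 14.01 ± 0.774 in anagen to 11.9 ± 1.36 in catagen and 7.17 ± 1.51 in telogen (SD, n = 4). In anagen against telogen 11 of 27 were lower in anagen and 2 higher (background 29.2% and 23.7%), with NFIB at -0.57, ALCAM, a cell adhesion molecule, at -0.40, ID2, an inhibitor of helix-loop-helix factors and target of BMP signals, at -0.80, PRDM1 at -0.42 and ITGB1 at 0.53. In catagen against anagen 0 of 27 passed in limma and 3 had an unadjusted p below 0.05. Without both telogen female libraries the counts were 4 higher and 2 lower in telogen against catagen, and 6 lower and 2 higher in anagen against telogen.

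**Figure D4:**
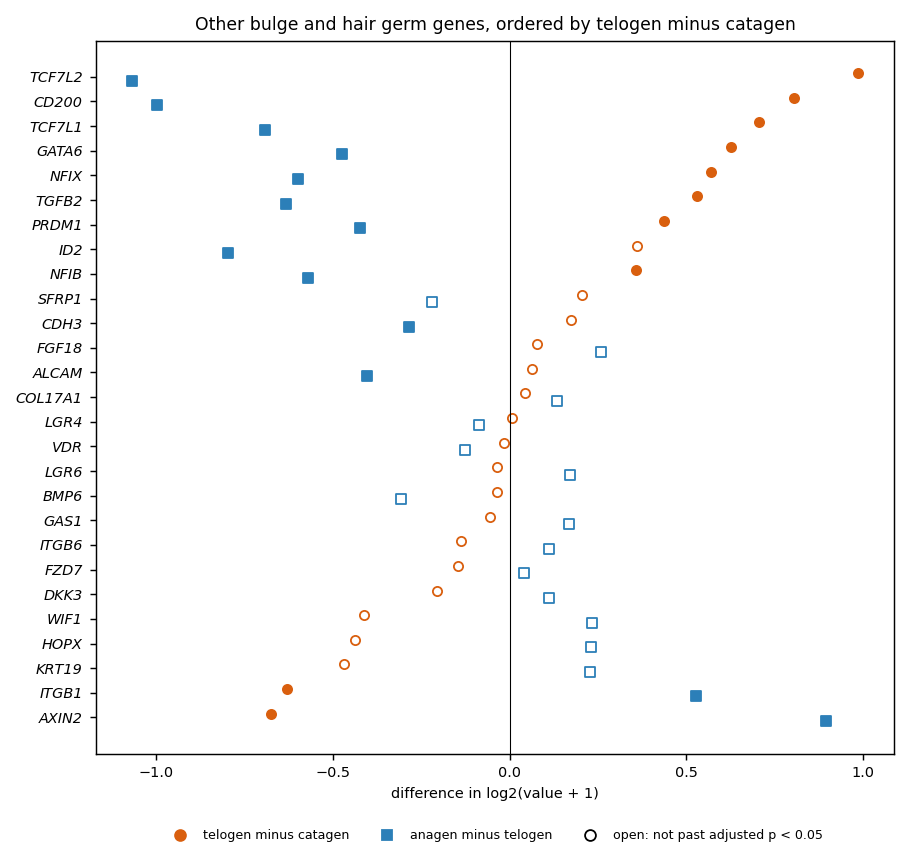
Difference in log2(value + 1) (horizontal axis) of the other 27 bulge and hair germ genes (vertical axis, ordered by telogen minus catagen), with orange circles for telogen minus catagen, blue squares for anagen minus telogen and filled symbols for adjusted p below 0.05. TCF7L2 and CD200 lie at the top, high in telogen, and ITGB1 and AXIN2 at the bottom, low in telogen. Both contrasts use the same 4 telogen libraries.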

How the data were processed

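Values were used as the authors deposited them, 1 table of 20326 genes for each of 12 libraries. Per the file headers the column is TPM, but the library sums differ, so the deposited values are treated as a signal rescaled between libraries by a step not given in the sources used here. Per the submitters' processing notes the tools were kallisto 0.46.1 and sleuth 0.30.0, and the build is not given in the sources used here. Symbols were matched by gene number to a RefSeq table (ARS1.2), which held 20294 of the IDs. The 16095 genes that reached 1 in 2 or more libraries were taken as log2(value + 1), which understates the change of low genes, and tested in limma 3.58.1 under R 4.3.3 with a mean-variance trend, 1 group per stage (4 libraries) or per month (2). Sex was tested within months (month as a block). Benjamini-Hochberg adjustment ran over all genes tested, and p-values measure the spread between these libraries only, whose number limits the precision. The fits were tested on simulated data.

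The members and lists were chosen with earlier results of these data known. All 10 members are reported; of the other listed bulge genes that passed, the 5 with the highest means are named, and PLET1 is not analysed here. Alternatives were quantile normalization, rescaling to a common sum with or without mitochondrial and ribosomal protein transcripts, an added constant of 0.1, no filter, a replicate block, month means, and each library left out. Fits without both May, both telogen female or both telogen male libraries were added after seeing the data. The planned promoter motif search was not run and no sequence is printed.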

Additional observations from a re-analysis of the deposited data

Results flagged for a closer look

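SOX9 in the May female, 114, stood apart from the other 3 anagen libraries, at 89.8 to 92.7. The gap to its nearest neighbour was 0.883 of the range of the 4 libraries, above Dixon's 95% critical value. It was the only library picked out among 30 groups of 4 (10 members in 3 stages), where chance picks out about 1 group in 20. Without it SOX9 in anagen minus telogen was -0.65 (limma adjusted p = 0.00201).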

How the results depend on the processing

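Of 2550 recomputed member values, 2429 stayed on the same side of the threshold, 78 fell out of it and 43 came into it. The sign changed in 89, in 0 of which the member passed before or after. With any 1 library left out, 6 to 8 members passed in anagen against telogen, 2 to 5 in telogen against catagen (2 without the November female), 0 to 5 in the F test over months, 0 to 4 in May minus March and 0 to 2 in February minus December. The other 7 limma comparisons gave 0 under every alternative run. In anagen against telogen 3 passed without both May libraries (CD34, SOX9 and LHX2) and 4 without both telogen females, and in telogen against catagen 0 passed without both telogen females. May minus March gave 2 with no filter. Ratios to KRT5 and KRT14 gave 15 of 20 against 0 for the 8 markers, and leaving out a library gave 0 for the 8 markers. In a contrast that loses a library, the smallest p this test allows is then above 0.05. In a contrast that keeps 4 against 4 libraries, its 10 pairs are too few for any to pass after adjustment over 20. The 0 was thus fixed in advance and does not show stability.

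With the replicate block, 5 members passed the F test and 2 passed February minus December (LHX2 and TBX1), while telogen against catagen gave 5, with SOX9 added. No other count moved. The share of all tested genes that passed also differed between fits. Nothing particular to the members is therefore read from the counts of this section. The replicate number marks sex, and libraries with the same number deviated together (r over 0.1) in 9 of 15 pairs of months, from -0.255 to 0.442, so the numbers were not taken to pair the samples. Rescaling without mitochondrial and ribosomal protein transcripts moved the median of all genes in anagen minus telogen from -0.07 to -0.18, with LRIG1 at 0.41, no longer past the threshold, and CD34 at -0.88. The cause of these changes was not tested. Read depth is unknown, so counting error could not be given.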
